A study of Mus musculus with 6 samples.

Results

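The genes described here encode neurotransmitter receptors and their subunits. They were chosen by symbol: every row of the deposited table whose gene symbol starts with the name of a glutamate, GABA, glycine, acetylcholine, serotonin, dopamine, adrenergic or adenosine receptor. This gave 34 of the 10989 genes in the table. RefSeq (GRCm38.p6) lists 106 protein-coding mouse genes under the same names, and the other 72 are not analysed here, among them all muscarinic and dopamine receptor genes. The deposited table keeps a gene only if all 3 libraries of at least 1 fraction had an estimated count of at least 50. Of the 34 receptor genes, 27 met this in Input only, 6 in both fractions and 1 in Positive only.

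The libraries come from brains of Tie2-cre+; NuTRAP+ mice. Tie2-cre expresses Cre from the promoter of the Tie2 gene (Tek), which is active in endothelial cells and also in blood cell lineages. Once Cre has acted, NuTRAP puts EGFP on ribosomes and mCherry on nuclei. The Input group holds 3 libraries of dissociated brain cells, and the Positive group holds 3 libraries of cells sorted from such suspensions as EGFP positive, CD31 positive and CD11b negative. All 6 libraries share this genotype and carry WT in their titles, with replicate numbers 1222, 1223 and 1227 in each group. The sources used here give no age or sex and do not say whether a replicate number is 1 mouse. The p-values therefore measure the spread between these libraries.

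Neurotransmitter receptors are of 2 main kinds. Ionotropic receptors are ion channels built from several subunits and open when the transmitter binds. Metabotropic receptors act through G proteins, which raise or lower cyclic AMP or release calcium. In the brain most of these genes are known from neurons, but astrocytes, oligodendrocyte precursors, microglia and choroid plexus epithelium each use some of them, and vessels respond to adenosine and adrenaline through receptors of their own.

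Summed estimated counts ran from 4772866 (Positive 1223) to 52283556 (Input 1227) per library, and Input 1223, at 4814966, was as shallow as its Positive partner. All 10 endothelial markers were higher in Positive (median log2 fold change 2.88). Their summed level was 3402 to 4653 CPM in Input and 25260 to 27610 CPM in Positive. CPM is a gene's count as parts per 1000000 of the library total, scaled by edgeR's TMM method, and fold changes and their standard errors (SE) are from edgeR's quasi-likelihood test over all 10989 genes. A gene was called at a Benjamini-Hochberg adjusted p below 0.05. CPM with ± are means with the SD of 3 libraries, log2 fold changes with ± carry the SE, and gene coordinates are those of the deposited table (mm10). Input also contains endothelial cells, and in such bulk samples fewer cells of a type and less RNA per cell cannot be told apart.

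Nearly every receptor gene that could be followed was lower in the sorted endothelial fraction than in the suspension. Of the 34 genes, 30 were lower, 1 was higher (Adora2a) and 3 were not called, Adra2b and Chrnb1 among them. With the replicate number as a block, 2 were higher, Adora2a and Chrnb1. Of all 10989 genes, 29.4% were called lower and 26.1% higher, 55.5% in either direction. The median log2 fold change was -3.47 over the receptor genes and 0.03 over all genes. The minimum of the table bears on these counts. A gene kept through Input only had to be low in at least 1 Positive library, and 80.7% of the 1897 genes kept in this way were called lower. Among the 6 receptor genes that met the minimum in both fractions, 4 were lower, Gria1, Grm3 and Gabbr1 among them, against 19.9% of the 8509 such genes in the table. Every Positive CPM was below every Input CPM for 30 of the 34 genes, as for 32.6% of all genes. They were the 30 genes called lower. Without overlap they were necessarily also lower within each of the 3 replicate numbers.

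**Figure D1:**
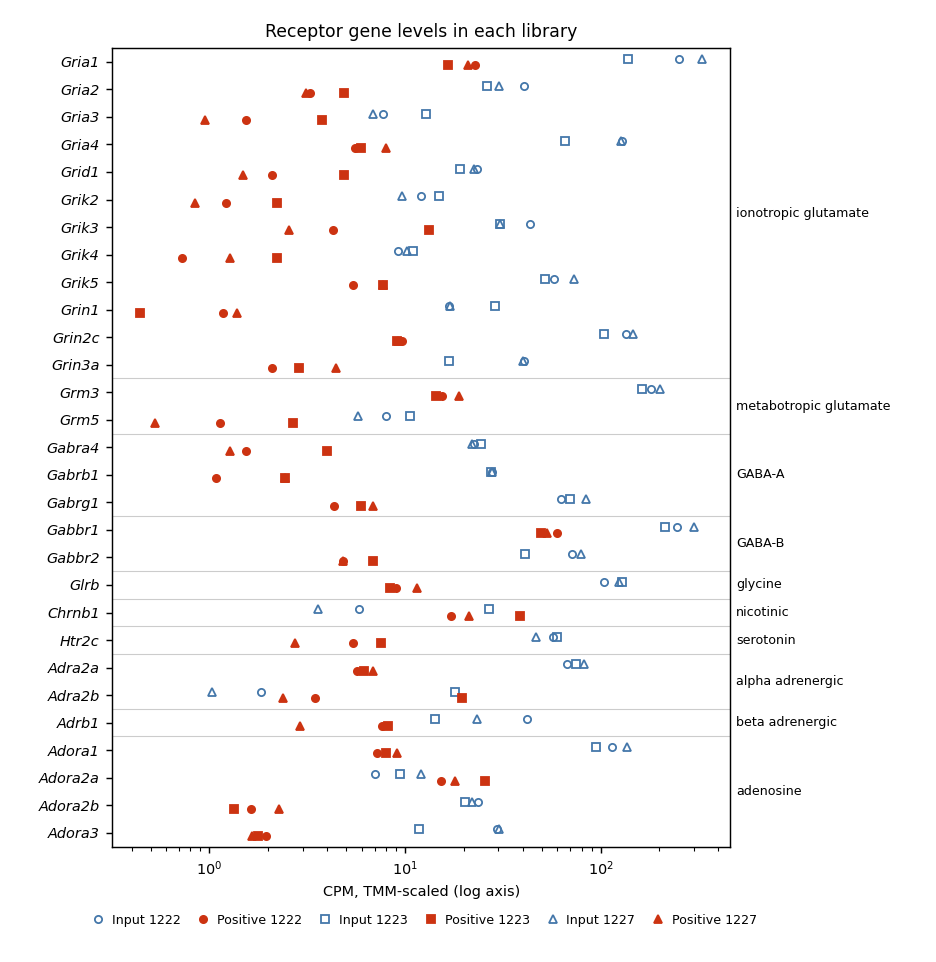
CPM (TMM-scaled, log axis) of 29 of the 34 receptor genes in each of the 6 libraries, grouped by receptor family; open blue symbols are Input, filled red symbols are Positive, and the symbol shape is the replicate number. For 26 genes every Positive value lies to the left of every Input value, and for Adora2a every Positive value lies to the right.

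**Figure D2:**
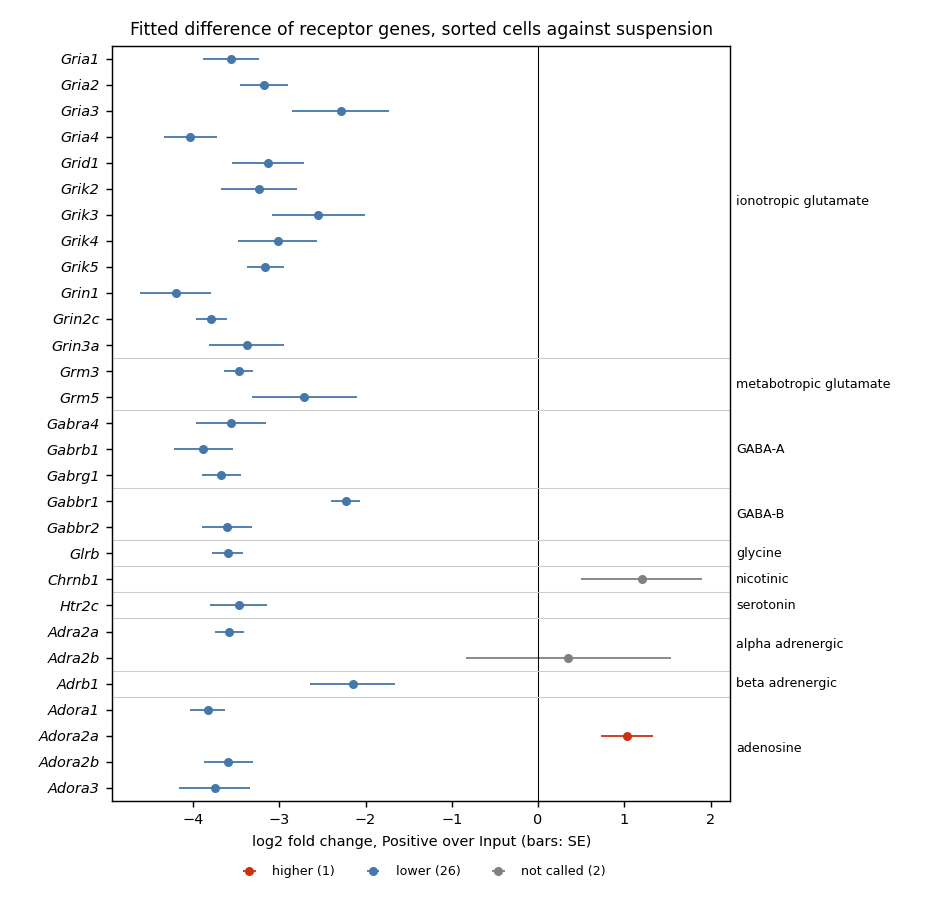
Fitted log2 fold change of Positive over Input for 29 of the 34 receptor genes, with SE as bars. The 26 lower genes shown lie between -4.20 and -2.15, Adora2a is the 1 gene called higher at 1.03, and 2 genes in grey were not called.

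All 13 ionotropic glutamate receptor genes were lower in Positive, with log2 fold changes from -4.20 to -2.29. Of all genes 29.4% were lower. All but Gria1 were kept in the table through Input only, where 80.7% of all genes were lower and 0% higher. AMPA receptors carry most of the fast excitatory current at synapses, and Gria1, the gene of 1 of their subunits, had the highest mean CPM of the 13. Gria1 (chr11:57011618-57330244) stood at 251.5, 138.6 and 330.4 CPM in Input 1222, 1223 and 1227 and at 22.8, 16.6 and 21.0 CPM in Positive. The groups were far apart although Input 1223 held less than the other Input libraries. The log2 fold change of Gria1 was -3.56 ± 0.32 (SE, adjusted p = 2.58e-05). Gria4 (chr9:4417893-4796234), another AMPA subunit, had 129, 65.5 and 127 CPM in Input and 5.56, 5.99 and 7.995 CPM in Positive (log2 -4.03 ± 0.31). Input 1223 was the lowest Input library for Gria4 too. The remaining AMPA subunit genes fell too: Gria2 from 32.3 ± 7.34 to 3.75 ± 0.977 CPM (SD, n = 3, log2 -3.18) and Gria3 from 9.14 ± 3.19 to 2.09 ± 1.49 CPM (log2 -2.29). Per kilobase of exon, the ratio of Gria1 to Gria2 was 16, 13.6 and 28.1 in Input and 18.0, 8.77 and 17.3 in Positive, and the groups overlapped (exact two-sided permutation p = 0.6, the same after Benjamini-Hochberg adjustment over 5 such ratios). The fall of Gria3 was not called without both libraries of replicate 1222 (log2 -2.23, adjusted p = 0.0574).

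Gria2 encodes the subunit that makes AMPA receptors largely impermeable to calcium, and REST, a repressor of neuronal genes in other cell types, is known to bind a sequence called RE1. The RefSeq promoters (250 bases before to 50 after the gene start, GRCm38.p6) of 23 of the 34 genes, 25 windows in all, were searched on both strands for the RE1 consensus, a sequence of 21 positions of which 3 may hold any base. Gria2 had the closest match, with 2 mismatches, on the strand opposite to the gene (chr3:80802989-80803009). Of all 32851 promoter windows of this length, 0.0457% held a match with 2 or fewer mismatches. The next closest receptor promoter, Gabrg1, had 5 mismatches (3.92% of all windows had 5 or fewer), and the others had 6 to 8. The sites of Gria2, Gabrg1 and Gabbr1 are shown to set the closest match beside the next closest and one of the most distant. In the sites, capitals mark bases that match the consensus or sit at its free positions (10, 11 and 18 from the left), and lower case marks mismatches. In the Gria2 promoter, the 250 bases before the gene start read on the gene's minus strand (chr3:80802836-80803085), capitals mark the reverse complement of its site.
Gria2 site: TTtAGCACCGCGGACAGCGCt
Gabrg1 site (chr5:70842720-70842740): TagtGCcCtGTGGACAGAGCC
Gabbr1 closest site (chr17:37045754-37045774): cctAtaACCCCctACAGCcCC
Gria2 promoter: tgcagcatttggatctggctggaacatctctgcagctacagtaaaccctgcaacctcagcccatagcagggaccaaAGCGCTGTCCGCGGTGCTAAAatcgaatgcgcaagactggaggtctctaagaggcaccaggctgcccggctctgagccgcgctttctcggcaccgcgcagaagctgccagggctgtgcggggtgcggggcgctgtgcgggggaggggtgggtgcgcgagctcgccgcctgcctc
A match is a description of the letters, and binding was not measured.

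NMDA receptors need the subunit encoded by Grin1, and this gene had the largest fitted fall of the 34 in the main fit. Grin1 (chr2:25291177-25319163) stood at 16.8, 29.0 and 16.9 CPM in Input and at 1.18, 0.444 and 1.38 CPM in Positive, a log2 fold change of -4.20 ± 0.41 (adjusted p = 4.6e-05). The Positive 1223 value rests on an estimated count of 2.5. Without both libraries of 1223 the log2 fold change of Grin1 was -3.73, a smaller fall than that of Gria4 (-4.25). Grin2c (chr11:115249169-115267243), an NMDA subunit known from cerebellar granule cells and astrocytes, had 135.5, 104.5 and 147 CPM in Input and 9.68, 9.09 and 9.21 CPM in Positive. Its Positive libraries were nearly equal, and its log2 fold change was -3.79 ± 0.18 (adjusted p = 2.7e-06). Grin3a, which encodes a modulatory NMDA subunit, fell from 32.5 ± 13.6 to 3.14 ± 1.2 CPM (log2 -3.38).

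Kainate receptors contain subunits from Grik1 to Grik5, of which 4 genes were measured. Grik5 (log2 -3.16), Grik2 (-3.24), Grik4 (-3.02) and Grik3 (-2.55) all fell. Grik3 was uneven in the sorted cells, where Positive 1222, 1223 and 1227 held 4.30, 13.3 and 2.54 CPM; the Input libraries held 43.4, 30.8 and 30.4 CPM. Only Positive 1223 stood well above the rest of its group. Grid1, a delta receptor gene whose product organises synapses, fell from 21.7 ± 2.19 to 2.81 ± 1.81 CPM (log2 -3.13).

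The 3 metabotropic glutamate receptor genes that were measured all fell, as did 29.4% of all genes. Grm5 was kept in the table through Input only, where 80.7% of all genes were lower. Grm3 (chr5:9485236-9725352), a receptor that lowers cyclic AMP and is known from astrocytes and neurons, stood at 182, 163 and 202 CPM in Input and 15.5, 14.4 and 19.0 CPM in Positive. The libraries of each group were close together, and the log2 fold change was -3.47 ± 0.17 (adjusted p = 2.7e-06). Grm5 encodes a receptor that releases calcium through Gq. It fell from 8.13 ± 2.42 to 1.44 ± 1.1 CPM (log2 -2.71 ± 0.61, adjusted p = 0.00508), a fall that was not called without both libraries of 1222 (adjusted p = 0.0521).

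Receptors for the inhibitory transmitters GABA and glycine were lower in every measured case, against 29.4% of all genes. All but the GABA-B gene Gabbr1 were kept in the table through Input only, where 80.7% of all genes were lower and 0% higher. GABA-A receptors are chloride channels of alpha, beta and mostly gamma subunits, and 5 of their genes fell within a narrow range of log2 -3.88 to -3.56. Gabrg1 (chr5:70751047-70842617) had the highest mean CPM of the 5, with 62.5, 70.1 and 84.1 CPM in Input and 4.34, 5.99 and 6.88 CPM in Positive (log2 -3.67 ± 0.23, adjusted p = 4.79e-06). Gabrb1 stood at 27.7, 27.6 and 27.98 CPM in Input and 1.09, 2.44 and 2.44 CPM in Positive (log2 -3.88 ± 0.34). The Input libraries of Gabrb1 were nearly equal. For Gabra4 (log2 -3.56) replicate 1223 was the highest library in both groups. Gabra4 and Gabrb1 share 46 exonic bases on opposite strands in GENCODE M21. Glrb (chr3:80843604-80913624), the glycine receptor subunit that anchors the channel to gephyrin, had 104.4, 129 and 124 CPM in Input and 9.04, 8.43 and 11.5 CPM in Positive (log2 -3.60 ± 0.18, adjusted p = 2.87e-06).

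The GABA-B receptor is a pair of proteins, 1 that binds GABA (from Gabbr1) and 1 that couples to the G protein (from Gabbr2), and both transcripts were lower in the sorted cells. Gabbr1 (chr17:37045966-37074305) stood at 245, 214 and 302 CPM in Input and 60.1, 49.4 and 53.0 CPM in Positive. Gabbr2 (chr4:46663898-46991714) stood at 71.6, 41.2 and 79.7 CPM in Input and 4.84, 6.87 and 4.82 CPM in Positive. The log2 fold changes were -2.23 ± 0.17 (adjusted p = 1.06e-05) and -3.61 ± 0.29 (adjusted p = 1.61e-05), and the Positive mean was 21.3% of the Input mean for Gabbr1 and 8.59% for Gabbr2. Per kilobase of exon, the ratio of Gabbr1 to Gabbr2 was 2.95, 4.48 and 3.27 in Input and 10.7, 6.20 and 9.46 in Positive, with no overlap. Its exact two-sided permutation p was 0.1 (Benjamini-Hochberg 0.125 over the 5 ratios), which does not pass 0.05 and is the smallest p that 3 against 3 libraries can give. Gabbr2 was kept in the table through Input only, and Gabbr1 met the minimum in both fractions. The minimum thus favoured the direction of this ratio, and the ratio and its p are a description only.

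Of the 4 adenosine receptor genes, Adora2a was called higher and Adora1, Adora2b and Adora3 were lower. The table kept Adora2a through Positive only and the other 3 through Input only, so each had to be low in at least 1 library of the other fraction. Adenosine arises from ATP outside cells. The receptors from Adora1 and Adora3 lower cyclic AMP, and those from Adora2a and Adora2b raise it. The Adora2a receptor is known to widen vessels. Adora2a (chr10:75316943-75334788) stood at 7.05, 9.39 and 12.1 CPM in Input and 15.3, 25.7 and 18.1 CPM in Positive. Every Positive library was above every Input library, as for 31.8% of all genes in that direction. The log2 fold change was 1.03 ± 0.30 (adjusted p = 0.0174). The count that kept Adora2a below the minimum in Input was 47.0, in Input 1223. Of the 583 genes kept through Positive only, 49.2% were called higher and 0% lower. The rise was not called without Input 1222 (log2 0.84, adjusted p = 0.0581) or without both libraries of 1223 (0.79, adjusted p = 0.0814), and over the 16 alternatives tried its adjusted p ran from 0.00451 to 0.0814.

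Adora1 (chr1:134199222-134235431) was the adenosine receptor gene with the highest mean CPM in Input. It had 114, 94.3 and 137 CPM in Input and 7.19, 7.98 and 9.11 CPM in Positive (log2 -3.83 ± 0.20, adjusted p = 2.94e-06). The libraries of each group lay close together. Adora2b fell from 21.9 ± 1.69 to 1.75 ± 0.484 CPM (log2 -3.59). Adora3 stood at 29.6, 11.8 and 30.2 CPM in Input and 1.95, 1.77 and 1.64 CPM in Positive (log2 -3.75 ± 0.41). Input 1223 was the low library for Adora3, and the summed level of the 9 microglial markers was low there too (10110, 5247 and 9545 CPM in Input 1222, 1223 and 1227, against 1139 to 1974 CPM in Positive); the part of microglia in the Adora3 values was not tested. Adora3 shares 779 exonic bases with Tmigd3 on the same strand, and Adora1 shares 1162 with Mybph on the opposite strand (GENCODE M21); neither partner was analysed here, and reads on shared bases can belong to either gene. Per kilobase of exon, Adora2a was below Adora1 in Input (ratios of 0.116, 0.188 and 0.167) and above it in Positive (4.02, 6.09 and 3.76). The ratio to Adora2b was between 0.180 and 0.332 in Input and between 4.79 and 11.7 in Positive. These ratios are a description, since the minimum favoured their direction.

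Adrenergic receptors answer to noradrenaline and adrenaline, and the measured genes behaved in different ways. Adra2a and Adra2b were kept in the table through Input only, where 80.7% of all genes were lower and 0% higher. Adra2a (chr19:54045182-54048982), which encodes a receptor that lowers cyclic AMP, had 67.3, 74.7 and 82.2 CPM in Input and 5.70, 6.21 and 6.83 CPM in Positive (log2 -3.58 ± 0.17, adjusted p = 2.7e-06). Adra2b, a close relative, was dominated by 1 replicate number: it had 1.84, 18.0 and 1.03 CPM in Input 1222, 1223 and 1227 and 3.48, 19.5 and 2.38 CPM in Positive. Its log2 fold change of 0.35 ± 1.19 was not called (adjusted p = 0.822), and its sign turned without Input 1222 (-0.17), Input 1227 (-0.25) or Positive 1223 (-1.02). Within each number it was higher in Positive, by 0.92, 0.12 and 1.22 on the log2 scale. With the replicate number as a block it was 0.73 ± 0.33, again not called (adjusted p = 0.104). Relative to the mean of the other numbers, 1223 was 12.5-fold higher in Input and 6.65-fold higher in Positive, and of all 10989 genes only Adra2b itself was that high in both.

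Beta receptors raise cyclic AMP. Adrb1 (chr19:56722372-56724862) stood at 42.0, 14.2 and 23.4 CPM in Input and 7.64, 8.20 and 2.91 CPM in Positive, and fell by log2 -2.15 ± 0.49 (adjusted p = 0.0057). Adrb1 was kept in the table through Input only, where 80.7% of all genes were lower and 0% higher. The groups did not overlap, as for 32.6% of all genes in that direction. The difference within a number was smallest in 1223 (-2.46, -0.79 and -3.01 on the log2 scale). Markers of myeloid cells were uneven in the same libraries, although the sort took CD11b negative cells, a gate against microglia and macrophages. The 9 microglial markers were at the sums given above in Input, and the 7 perivascular macrophage markers, 6 of them called higher, summed to 3344, 1327 and 643 CPM in Positive 1222, 1223 and 1227 (549 to 612 CPM in Input). In Input the microglial sums had the same order of libraries as Adrb1. In Positive the orders differed: Adrb1 was highest in 1223, and the sums of both lists were highest in 1222. No marker of either list was at 0, and their part in the Adrb1 values was not tested.

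Acetylcholine and serotonin receptors were each represented by 1 gene. Chrnb1 (chr11:69784036-69795937) encodes the beta subunit of the nicotinic receptor of muscle. It stood at 5.82, 26.8 and 3.59 CPM in Input and 17.1, 38.6 and 21.3 CPM in Positive. It was higher in Positive within every number, by 1.56, 0.53 and 2.57 on the log2 scale, but Input 1223 lay above 2 of the 3 Positive libraries. The fold change of 1.20 ± 0.70 was not called (adjusted p = 0.18). With the replicate number as a block it was called (1.57, adjusted p = 0.0165), as it was without Input 1223 (2.43, adjusted p = 0.00291) and without both libraries of 1223 (2.03, adjusted p = 0.00351). Htr2c (chrX:146962513-147197277), the serotonin receptor known for its abundance in choroid plexus, had 56.8, 59.7 and 47.0 CPM in Input and 5.43, 7.54 and 2.75 CPM in Positive (log2 -3.47 ± 0.33, adjusted p = 4e-05). Htr2c was kept in the table through Input only, where 80.7% of all genes were lower and 0% higher. Choroid plexus markers, all 6 of them lower, summed to 469, 928 and 352 CPM in Positive 1222, 1223 and 1227. This was the same order of libraries as Htr2c there, and the part of choroid plexus was not tested.

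**Figure D3:**
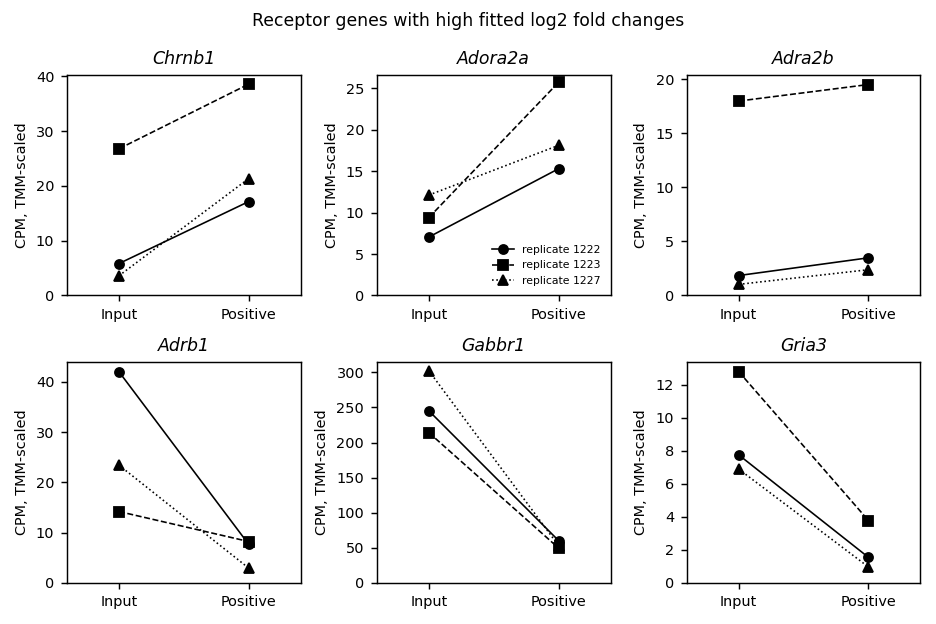
CPM (TMM-scaled, linear axis from 0) in Input and Positive for 6 receptor genes with high fitted log2 fold changes; lines join the libraries of 1 replicate number. Adora2a, Chrnb1 and Adra2b rise within every number, and Adrb1, Gabbr1 and Gria3 fall within every number. Adra2b is high in replicate 1223 only, where its rise is small (0.12 on the log2 scale).

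Because CPM grows with transcript length, levels of different receptor genes were compared per kilobase of the exons that GENCODE M21 gives each gene. In Input the order was led by Grm3 (59.8 ± 6.41 CPM per kilobase, SD, n = 3), Gria1 (39.8 ± 15.9), Gabbr1 (32.7 ± 5.76), Grin2c (25.6 ± 4.38) and Glrb (25.6 ± 2.81). In Positive, Chrnb1 (10.2 ± 4.49), Gabbr1 (6.98 ± 0.700), Adora2a (6.44 ± 1.76) and Grm3 (5.34 ± 0.780) were among the 5 highest. Neighbours in each of these orders overlapped between libraries, so the exact ranks are not resolved. Adora2a was 22nd of the 34 in Input and 4th in Positive, and Chrnb1 was 17th and 2nd. The minimum favoured such shifts, since 27 of the 34 genes were kept through Input only and Adora2a through Positive only. The Input mean of Chrnb1 rests mostly on Input 1223 (26.8 CPM, against 5.82 in Input 1222 and 3.59 in Input 1227). These rank shifts are a description only. This annotation may differ from the authors' own, and its exon lengths include every annotated transcript, which lowers the value of genes with long or many transcripts such as Gria2.

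The share of the Input level found in the sorted cells set most receptor genes beside markers of neural cells. For 19 of the 30 lower genes the Positive mean was between 4% and 10% of the Input mean, for 5 it was between 10% and 15%, and for 6 it was above 15%, among them Grm5 (17.7%), Grik3 (19.3%), Gabbr1, Gria3 (22.8%) and Adrb1 (23.6%). The median over the marker lists was 5.97% for 9 neuronal (4.05% to 50.7%), 9.40% for 10 astrocyte, 7.85% for 8 oligodendrocyte precursor (of which Cspg4, also a pericyte gene, was higher at 155.5%), 12.2% for 9 microglial, 8.37% for 6 choroid plexus and 3.85% for 9 oligodendrocyte genes. The summed neuronal markers stood at 545 to 687 CPM in Input and 61.0 to 86.8 CPM in Positive, and 8 of the 9 were called lower. The summed astrocyte markers stood at 6533 to 9426 CPM in Input and 613 to 959 CPM in Positive. No neuronal or astrocyte marker was at 0 in Positive, and whether these transcripts came from the sorted cells or from others was not tested. Pericyte markers were higher in Positive in 8 of 8 cases (615 to 744.5 CPM in Input, 1201 to 1957 CPM in Positive). Smooth muscle markers were mixed, with 1 of 5 lower and 4 not called. These lists can include cell types that carry receptors of vessels, and their part in the Adora2a and Chrnb1 values was not tested.

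**Figure D4:**
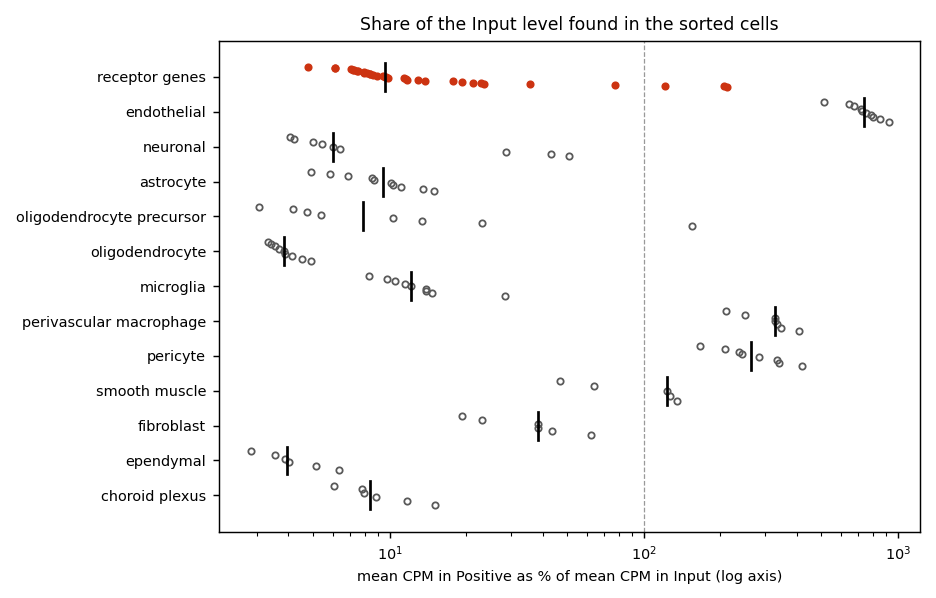
Mean CPM in Positive as a percentage of mean CPM in Input (log axis) for the 34 receptor genes (red) and for 12 lists of cell type markers (grey); each point is 1 gene, the black bar is the median and the dashed line marks equal levels. The receptor median is 9.63%, in the range of neuronal, astrocyte, oligodendrocyte precursor, microglial and choroid plexus markers. Of the 34 receptor genes, 27 were kept in the table through Input only, which favoured a low share. To the right of the line lie 3 receptor genes.

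Genes whose proteins sit beside the receptors at synapses were counted in the same fit; of all genes 29.4% were lower and 26.1% higher. Of 8 measured partners of ionotropic glutamate receptors, 7 were lower and 0 higher (median log2 -3.43; Cnih3 was not called). The 3 with the highest mean CPM were Olfm1 (log2 -2.96), Shisa9 (-3.96) and Cacng5 (-4.49). All 8 were kept in the table through Input only, where 80.7% of all genes were lower. Of 14 excitatory postsynaptic scaffold genes, 9 were lower and 1 higher (median -1.19); 7 of the 9 were kept through Input only. Dlg4, the gene of the scaffold PSD-95, fell from 70.4 ± 24.4 to 7.05 ± 1.63 CPM (log2 -3.29), Dlg1 fell by less (log2 -0.53) and Dlgap4 was not called (0.08, adjusted p = 0.587). Shank3, a scaffold gene also known from autism, was the 1 that rose, from 63.0 ± 13.8 to 211 ± 36.4 CPM (log2 1.73 ± 0.20, adjusted p = 0.000116). Of 7 partners of inhibitory receptors, 4 were lower and 1 higher (median -0.78), and 1 of the 4 was kept through Input only. Gphn, the gene of gephyrin, fell by log2 -0.78 and Nlgn2 by -1.85, while Kctd12 (-0.30, adjusted p = 0.369) and Gabarap (-0.13, adjusted p = 0.576) were not called. The 1 that rose was Kctd12b, a relative of the auxiliary subunits of GABA-B receptors, from 34.9 ± 2.82 to 174 ± 26.5 CPM (log2 2.32 ± 0.16, adjusted p = 6.5e-06).

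Genes that make, move or break down the transmitters were counted in the same way, beside the same shares of all genes. Of the genes kept in the table through Input only, 80.7% were lower. Such genes were 3 of the 8 falls for GABA and glycine, 1 of the 4 for glutamate and 1 of the 2 for acetylcholine. For GABA and glycine, 8 of 9 were lower and 0 higher (median -3.54; Gad1 and Gad2 are also on the neuronal marker list), among them the GABA transporter Slc6a11 (log2 -4.28) and the glycine transporter Slc6a9 (-4.44). For glutamate, 4 of 7 were lower and 2 higher (median -0.63). The astrocyte uptake transporters Slc1a2 and Slc1a3 fell (log2 -2.74 and -3.52), Glul was not called (0.20, adjusted p = 0.282), and the transporter Slc1a1 rose (69.8 ± 25.1 to 394 ± 25.2 CPM, log2 2.51 ± 0.24). For monoamines, 2 of 5 rose, both enzymes: Maoa, which breaks down monoamines (149 ± 25.3 to 682 ± 95.6 CPM, log2 2.20 ± 0.18), and Ddc, which makes dopamine and serotonin from their precursors (37.5 ± 8.41 to 177 ± 4.63 CPM, log2 2.26 ± 0.17). Maob and the uptake transporter Slc29a4 fell (log2 -0.72 and -1.24). For acetylcholine, 3 genes were measured: Bche, a cholinesterase gene, rose (log2 1.25), and Slc44a1 (-2.05) and Ric3 (-1.71) fell. For adenosine, 3 of 9 rose and 5 fell (median -0.96). Of the 5 that fell, 3 were kept through Input only, Nt5e among them. Among the 6 that met the minimum in both fractions, 3 rose and 2 fell. The adenosine-forming enzyme Nt5e fell (log2 -4.16), as did Slc29a3 (-1.88) and Adk (-0.96). Alpl (1.52), the adenosine transporter Slc29a1 (0.53) and Dpp4 (2.42) rose, and Entpd1 was not called (0.01, adjusted p = 0.978).

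The genes that carry the signals of metabotropic receptors held calls in both directions, as did all genes (26.1% higher, 29.4% lower). Of 20 G protein subunit genes, 9 rose and 9 fell (median -0.01). Of these falls, 4 were of genes kept in the table through Input only, where 80.7% of all genes were lower and 0% higher. Among the 16 that met the minimum in both fractions, 9 rose and 5 fell. Of all such genes 30.4% were higher and 19.9% lower. The alpha subunits Gnas, which raises cyclic AMP, and Gnai2, which lowers it, rose from 1211 ± 57.3 to 2552 ± 222 CPM (log2 1.08 ± 0.14) and from 793 ± 50.6 to 1877 ± 109.5 CPM (log2 1.24 ± 0.13). Gnb1, a beta subunit, rose by less (log2 0.84). Gnao1, the main alpha subunit of neurons, fell from 711 ± 53.5 to 54.8 ± 18.8 CPM (log2 -3.68 ± 0.26), and Gnai1 fell too (-3.77). Of 21 genes of adenylyl cyclases and cyclic AMP effectors, 8 rose and 7 fell (median -0.17). Of the 7 that fell, 6 were kept through Input only. Among the 15 that met the minimum in both fractions, 8 rose and 1 fell. Among the cyclases, Adcy4 (46.0 ± 14.1 to 271 ± 15.4 CPM, log2 2.58 ± 0.21), Adcy6 (1.21) and Adcy9 (0.73) rose, and Adcy5 (-3.30), Adcy1 (-3.58), Adcy2 (-3.12) and Adcy8 (-3.08) fell. Of the subunits of protein kinase A, the kinase that cyclic AMP switches on, Prkar2b (1.80), Prkar2a (0.89) and Prkar1a (0.55) rose, Prkar1b fell (-2.45) and Prkacb was not called (-0.17, adjusted p = 0.248). Pde4a and Pde4b, which break cyclic AMP down, fell (Pde4b by log2 -0.95, Pde4a with adjusted p = 0.0109). Rapgef3, a cyclic AMP sensor also called Epac1, rose (log2 1.37), and Rapgef4, or Epac2, was not called (-0.36, adjusted p = 0.209). Of 15 receptor kinases, arrestins and Rgs genes, which end receptor signals, 6 rose and 7 fell (median 0.19). Of the 7 that fell, 3 were kept through Input only. Rgs12 (2.05), Grk5 (1.72), Rgs5 (1.29), Rgs3 (0.82), Rgs4 (0.74) and Grk6 (0.72) rose, and Rgs2 (-2.14), Rgs10 (-2.04) and Arrb1 (-0.76) fell; Rgs5 is also one of the 8 pericyte markers, all of which were higher.

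**Figure D5:**
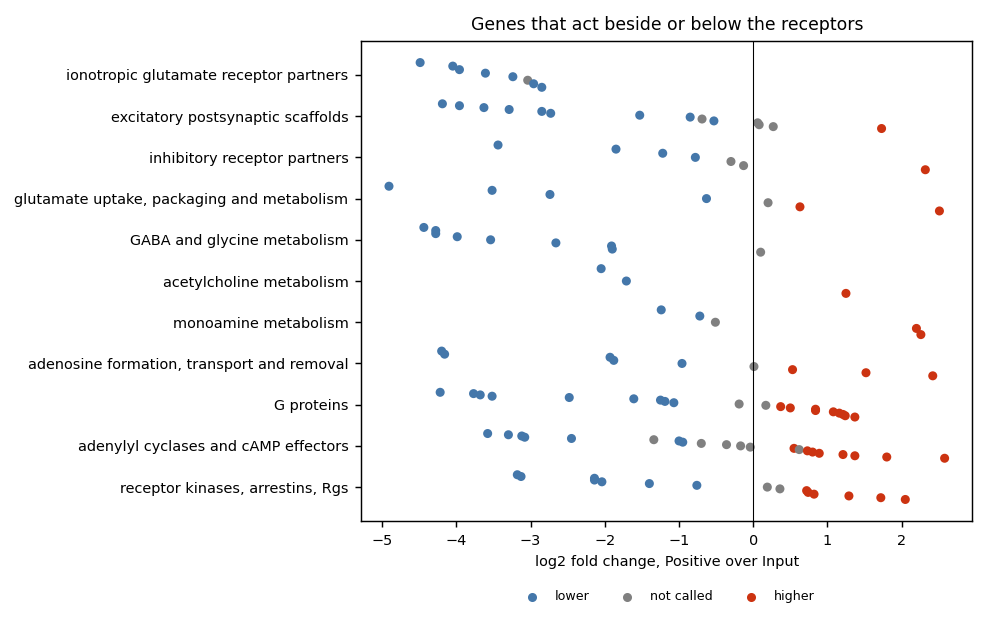
Fitted log2 fold change of Positive over Input for genes of 11 lists beside or below the receptors; each point is 1 gene, blue for called lower, red for called higher and grey for not called. The partners of ionotropic glutamate receptors and the GABA and glycine genes lie almost wholly to the left, while 9 of 20 G protein genes rise and 9 fall. Genes kept in the table through Input only, 4 of these 9 falls and all 8 of the partners, were favoured to lie to the left.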

How the data were processed

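Libraries of 3 Input and 3 Positive samples were made, per the labels, with a strand-specific kit (NEBNext Ultra II Directional). The deposited table gives estimated counts per gene, mostly not whole (4.7% of values are), and log2 values that the authors normalised by library and centred by gene. Per the file headers a gene was kept where all libraries of at least 1 condition had a raw value of at least 50; per the submitters' processing notes the build was mm10 and the tools include DESeq. The sources used here name no aligner or counter and do not say whether counting used strand.

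Positive was compared with Input on the rounded counts by the quasi-likelihood test of edgeR 4.0.16 under R 4.3.3. Library sizes were scaled by TMM, the filterByExpr filter (count minimum 10) removed no gene, and p-values were adjusted by Benjamini-Hochberg over all 10989 genes with a threshold of 0.05. The code was tested on simulated data. Ratios used exact permutation tests. Alternatives were other scaling, DESeq2 1.42.0, limma 3.58.1 on the deposited log2 values, other filters, a replicate block and left-out libraries. Deviations of Input and Positive from their group means correlated at 0.45, 0.23 and 0.30 for libraries of the same number. The main fit and the permutation tests did not pair the libraries by number. The replicate block, an alternative fit, did. Receptor genes and lists were chosen with earlier results of these data known; lists were described by counts, with no test. Values per library are given for the gene called higher, the 12 largest falls and the gene of each family with the highest mean CPM, with others added after their values were seen; some genes that these rules select are not reported here.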

Additional observations from a re-analysis of the deposited data

How the results depend on the processing

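The count of 30 lower receptor genes stayed between 28 and 30 in all 16 alternatives (29 with only genes of a mean CPM of at least 5, where Grm5 was not tested). The count of 1 higher receptor gene became 2 with the replicate number as a block (Adora2a and Chrnb1) and ranged from 0 (without Input 1222) to 2 (without Input 1223) when single libraries were left out; without both libraries of 1223 it was again 1, but the gene was Chrnb1 and not Adora2a. The block changed no other receptor call. Of all genes, 1741 and not 2870 were higher without both libraries of 1227, and no other count over all genes moved by more than 1.5 times; with single libraries left out that count ran from 2253 to 2755. Without scaling beyond library size the median log2 fold change of all genes shifted by -0.16, and no receptor gene changed its direction or call under any scaling, DESeq2 or limma. Adra2b turned to -0.17, -0.25 and -1.02 without Input 1222, Input 1227 and Positive 1223 (highest 2.46, without Input 1223), and it was called in no alternative. Its log2 fold change was 0.73 with the block and 1.06 without both libraries of 1223. The cause of these changes was not tested. Depth limits the low values: in Positive 1223, 25 of the 34 genes had an estimated count under 50 and 13 under 20.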

Other observations

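The falls of receptor genes were not even across replicate numbers. Within-number differences were smallest in 1223, the shallowest pair of libraries, for 22 of the 30 lower receptor genes (73.3%), and for 1383 of the 3227 lower genes of the whole table (42.9%). Replicate 1223 was more than 2 times the mean of the other numbers in both fractions for 2 receptor genes, Adra2b and Chrnb1 (5.88% of 34), and for 103 genes of the table (0.937%).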
